A study of Drosophila melanogaster with 4 samples.

Results

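The basement membrane genes are 10 genes of Drosophila melanogaster that encode the structural proteins of the extracellular sheet on which epithelia, muscle and gonads rest. They were taken by their symbols, Cg25C, vkg, LanA, LanB1, LanB2, trol, Ndg, Ppn, Pxn and wb, from tables of 14664 genes, and all 10 had a value in every library. Transcript levels were measured by RNA sequencing of oligo-dT selected RNA from testes of flies within 3 days of eclosion. Testes labelled Phf7-bam-, mutant for both genes, were set against testes labelled bam-, so that loss of bam was shared by both genotypes. Each genotype had 2 libraries, called biological replicates in the labels, and 4 libraries were measured in all. The labels name neither the alleles, nor the number of animals per library, nor further markers on the chromosomes. Germ cells without bam fail to leave the spermatogonial divisions, and Phf7 encodes a PHD finger protein of the male germline.

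A basement membrane is built on a laminin network and a collagen IV network, which nidogen and the proteoglycan perlecan link to each other. Laminin is a trimer of an alpha, a beta and a gamma chain, and collagen IV is a trimer that is tightened by crosslinks outside the cell. In the fly testis a basement membrane lies around the tube beneath its muscle sheath, and integrins on the somatic cells of the niche bind it.

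The deposited unit is FPKM, a count of fragments scaled to transcript length and library size, so levels of different genes are compared here per transcript length. Phf7 stood at 18.8 and 22.9 FPKM in Phf7 bam testes, against 173 and 152 FPKM in bam testes. The bam gene itself had 27.6 and 32.6 FPKM in Phf7 bam testes, against 28.6 and 26.5 FPKM in bam testes. The 10 early germ cell markers summed to 818 and 943 FPKM in Phf7 bam testes, against 792 and 756 FPKM in bam testes. They did not move alike: vas was nearly level, with a log2 change of -0.0034. The largest change of the list was that of nanos, at 171 and 205 FPKM in Phf7 bam testes, against 136 and 129 FPKM in bam testes. Transcripts of the accessory gland, a neighbouring organ, were uneven within both genotypes. Its 6 markers summed to 1052 and 16.9 FPKM in Phf7 bam replicates 1 and 2, against 6.91 and 545 FPKM in bam replicates 1 and 2. Relative depth was estimated as the most common ratio to bam replicate 1 among genes of at most 0.15 FPKM in both libraries. This put the depth of Phf7 bam replicates 1 and 2 at 1.16 and 1.41 times that of bam replicate 1, against 1.22 times for bam replicate 2. Only 21.4% to 22.8% of the genes used lay near the most common ratio, so the estimate is rough. Absolute depth is unknown.

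The members spanned a wide range of levels. Cg25C had the highest mean over the 4 libraries, at 77.5 FPKM, above 88.6% of the 8965 genes with a mean of at least 1 FPKM. Next came vkg at 46.3, LanB1 at 33.4, trol at 26.7, LanA at 15.3, LanB2 at 14.5, Pxn at 11.4, Ppn at 7.41, wb at 4.0 and Ndg at 3.02 FPKM. Most neighbours in this order were separated in all 4 libraries, with ranges that did not overlap. The exceptions were LanA and LanB2, whose order held in 3 of 4 libraries, and the pairs of Pxn with Ppn and of wb with Ndg, which kept their order in all 4 libraries although their ranges met.

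**Figure D1:**
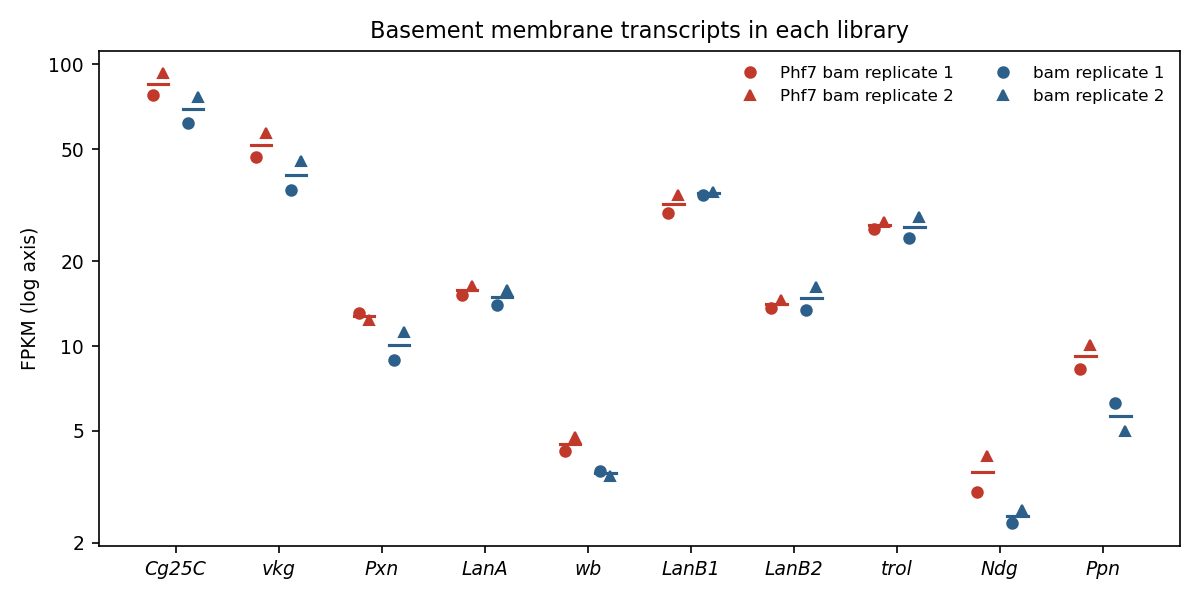
FPKM of each basement membrane gene on a log axis, with Phf7 bam libraries (red) left of bam libraries (blue), circles for replicate 1, triangles for replicate 2 and a bar at the mean of each genotype. Ppn shows the widest separation of the genotypes (8.32 and 10.1 FPKM in Phf7 bam testes, 6.29 and 5.0 FPKM in bam testes), while LanA, LanB2 and trol overlap.

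The genotypes were compared gene by gene with limma on log2(FPKM + 1), fitted to all 8965 genes, with two-sided tests and Benjamini-Hochberg adjustment over all of them. A gene was called at an adjusted p under 0.05, which held for 0.234% of the genes tested. None of the 10 members was called, and their limma adjusted p lay between 0.580 and 0.989. At an unadjusted p under 0.05, reached by 6.13% of all genes, 1 member passed, and it was Ppn. With robust moderation, a setting in which the spread of most genes is taken from their expression level rather than from their own replicates, 3.42% of all genes were called in either direction and 2.42% higher in Phf7 bam testes, and Ppn was again the only member among them. In 6 members both Phf7 bam libraries lay above both bam libraries, as in 20.5% of all genes. In 1 member, LanB1, both lay below, as in 14.0% of all genes. The median log2 change of the members was 0.29, beside 0.03 over all genes tested, and 8 of 10 had a positive change, as did 57.4% of all genes. The members were chosen with earlier results of these data known, so this is a description.

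**Figure D2:**
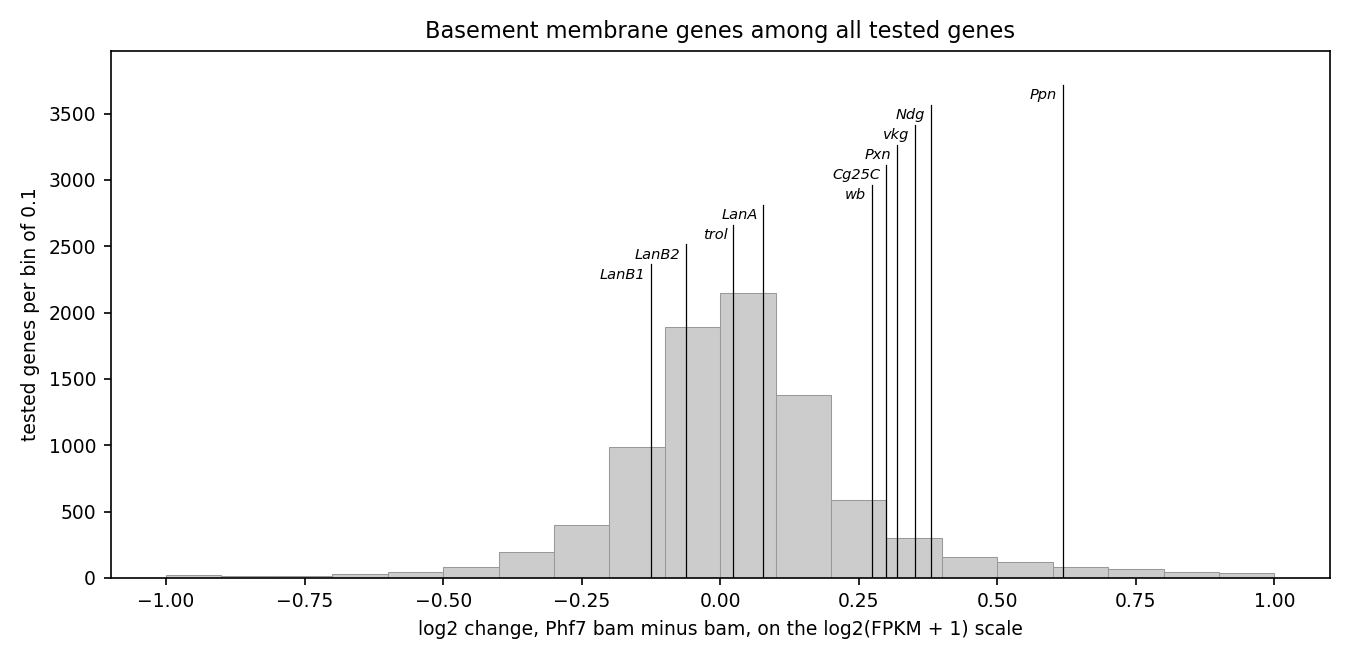
Log2 change (Phf7 bam minus bam, on the log2(FPKM + 1) scale) of the genes tested in bins of 0.1 (grey bars; 379 of 8965 genes lie beyond the axis), with a black line for each basement membrane gene. Ppn at 0.62 lies farthest to the right and LanB1 at -0.12 farthest to the left, and the heights of the lines carry no value.

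Cg25C (now named Col4a1; dm3, 2L, 5029615 to 5037114), which encodes the alpha1 chain of collagen IV, stood at 77.9 and 93.1 FPKM in Phf7 bam testes, against 62.0 and 77.0 FPKM in bam testes. The genotypes did not overlap, but Phf7 bam replicate 1 and bam replicate 2 differed by less than 1 FPKM. The change was 0.30 on the log2 scale (95% interval -0.14 to 0.73, limma adjusted p = 0.906). It was 0.14 without bam replicate 1, 0.45 without bam replicate 2 and 0.17 without Phf7 bam replicate 2. vkg (2L, 5012144 to 5027412), which encodes the alpha2 chain of the same trimer, had 46.9 and 57.0 FPKM in Phf7 bam testes, against 35.7 and 45.5 FPKM in bam testes. Its libraries stood in the same order as those of Cg25C, with Phf7 bam replicate 2 highest and bam replicate 1 lowest. Its change was 0.35 (95% interval -0.11 to 0.81, limma adjusted p = 0.906), and it was 0.18 without bam replicate 1 and 0.21 without Phf7 bam replicate 2. For both chains the gap between replicates of a genotype was about as wide as the gap between genotypes.

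The collagen IV genes are neighbours on 2L that are transcribed away from each other, with 2202 bp between their loci in the deposited tables. Their levels kept nearly the same proportion in every library. The ratio of vkg to Cg25C was 0.602 and 0.612 in Phf7 bam testes, against 0.577 and 0.591 in bam testes, a small difference without overlap. On the log2 scale this ratio spanned 0.086 over the 4 libraries. Over the 1493 pairs of tested genes that are neighbours, diverge and lie no farther apart than this pair, the median span was 0.305, and 3.28% of pairs spanned as little as the collagen IV pair or less. Spans are smaller for abundant genes: among the 80 such pairs in which both genes had at least the mean level of vkg, the median span was 0.201 and the share was 7.50%.

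**Figure D3:**
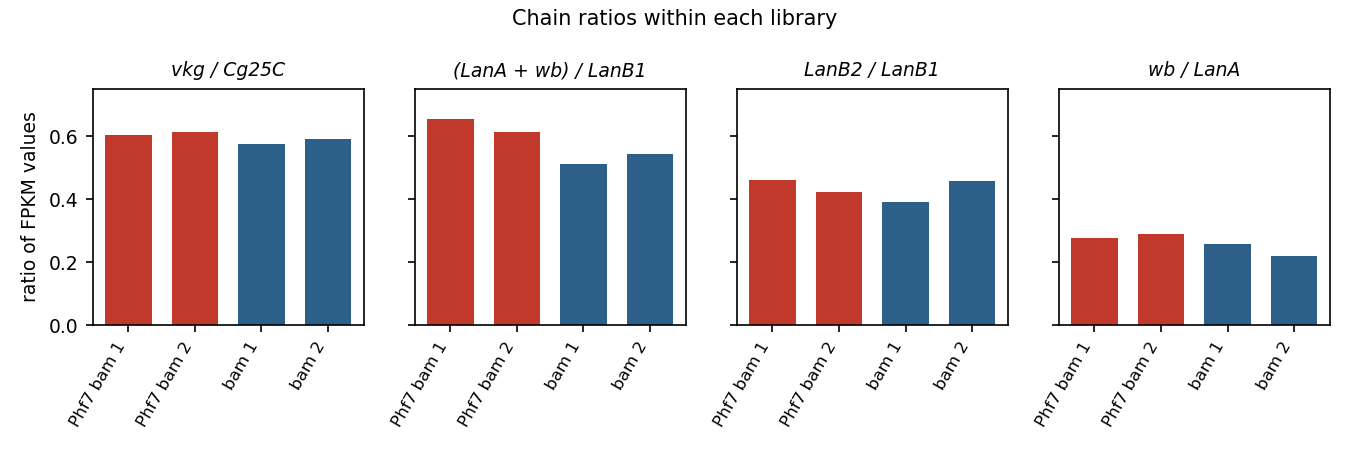
Ratios of FPKM values within each library, with Phf7 bam libraries (red) left of bam libraries (blue), for collagen IV chains (first panel) and laminin chains (other panels), axis from 0. The vkg to Cg25C ratio stays between 0.577 and 0.612, and the ratio of both laminin alpha chains to LanB1 is 0.654 and 0.613 in Phf7 bam testes, against 0.511 and 0.545 in bam testes.

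Pxn (3L, 2601450 to 2630072) encodes peroxidasin, the enzyme that forms sulfilimine crosslinks between collagen IV molecules. It had 13.1 and 12.4 FPKM in Phf7 bam testes, against 8.94 and 11.2 FPKM in bam testes. Both Phf7 bam libraries lay above both bam libraries, and here, unlike for the collagen IV chains, Phf7 bam replicate 1 was the highest. The change was 0.32 (95% interval -0.05 to 0.69, limma adjusted p = 0.874), and 0.17 without bam replicate 1. In the later annotation the exons of Pxn share 233 bp in all with CG16986, on the opposite strand, and with a further gene on its own strand, and reads of those stretches may have been counted for either gene.

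The laminin chains showed no common direction. LanA (3L, 6196931 to 6211084), an alpha chain, had 15.2 and 16.3 FPKM in Phf7 bam testes, against 14.0 and 15.8 FPKM in bam testes. These ranges overlapped, and the change was 0.08 (95% interval -0.22 to 0.38, limma adjusted p = 0.976). The other alpha chain, wb (2L, 14263522 to 14328262), had 4.23 and 4.73 FPKM in Phf7 bam testes, against 3.61 and 3.45 FPKM in bam testes. Both Phf7 bam libraries lay above both bam libraries, with a change of 0.27 (95% interval -0.12 to 0.66, limma adjusted p = 0.906). LanB1 (2L, 7811440 to 7820774), the beta chain, had 29.7 and 34.3 FPKM in Phf7 bam testes, against 34.4 and 35.3 FPKM in bam testes. It was the only member with both Phf7 bam libraries below both bam libraries, by a margin of under 1 FPKM, and its change was -0.12 (95% interval -0.43 to 0.19, limma adjusted p = 0.933). Leaving out Phf7 bam replicate 1 gave -0.02, and leaving out Phf7 bam replicate 2 gave -0.22. LanB2 (3L, 9608019 to 9617080), the gamma chain, had 13.7 and 14.5 FPKM in Phf7 bam testes, against 13.5 and 16.2 FPKM in bam testes. The bam libraries enclosed the Phf7 bam libraries, and the change was -0.06 (95% interval -0.40 to 0.28, limma adjusted p = 0.982).

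Within the laminin trimer the single beta chain gene had the highest transcript level in every library. The summed level of the alpha chains LanA and wb, set against LanB1, gave a ratio of 0.654 and 0.613 in Phf7 bam testes, against 0.511 and 0.545 in bam testes. This ratio did not overlap between the genotypes, and neither did the ratios of vkg to Cg25C and of wb to LanA. Among single genes, 20.5% of all tested had both Phf7 bam libraries above both bam libraries, and 14.0% had both below. No such share was computed for ratios. The ratio of LanB2 to LanB1 was 0.461 and 0.424 in Phf7 bam testes, against 0.391 and 0.457 in bam testes, and overlapped. Among the alpha chains, wb stood at 0.278 and 0.291 of the level of LanA in Phf7 bam testes, against 0.258 and 0.218 in bam testes. With 2 libraries per genotype the ratios were not tested. Summed over its 4 chain genes, laminin had 62.9 and 69.8 FPKM in Phf7 bam testes, against 65.5 and 70.7 FPKM in bam testes. The collagen IV chains together were at 125 and 150.1 FPKM in Phf7 bam testes, against 97.7 and 122 FPKM in bam testes. They made up 52.4% and 54.8% of the summed FPKM of all 10 members in Phf7 bam testes, against 47.7% and 50.9% in bam testes.

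The components that bridge the networks differed in level and in spread. trol (X, 2365016 to 2439423), which encodes the heparan sulphate proteoglycan perlecan, had 26.1 and 27.6 FPKM in Phf7 bam testes, against 24.2 and 28.8 FPKM in bam testes. The Phf7 bam libraries lay between the bam libraries. The change was 0.02 (95% interval -0.31 to 0.36, limma adjusted p = 0.989), and its sign turned with equal medians and with quantile normalization. The annotation lists 25 transcripts of trol, with proteins of 2853 to 4489 amino acids, and the tables hold 1 value for all of them. Its exons share 23 bp with another gene on the same strand. Ndg (2R, 6201423 to 6209405), which encodes nidogen, the protein that binds both laminin and collagen IV, had 3.04 and 4.08 FPKM in Phf7 bam testes, against 2.35 and 2.62 FPKM in bam testes. Both Phf7 bam libraries lay above both bam libraries, and the gap between the Phf7 bam replicates was wider than the gap from the nearest bam library. The change was 0.38 (95% interval -0.14 to 0.90, limma adjusted p = 0.906), and 0.22 without Phf7 bam replicate 2. Its exons share 158 bp with CG34222 on the opposite strand.

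Ppn (3R, 24346387 to 24366053) encodes papilin, a large proteoglycan-like glycoprotein of basement membranes. It had 8.32 and 10.1 FPKM in Phf7 bam testes, against 6.29 and 5.0 FPKM in bam testes. The means were 9.18 ± 1.22 FPKM in Phf7 bam testes and 5.64 ± 0.91 FPKM in bam testes (SD, n = 2 each). Of the members it had the largest change, 0.62 on the log2 scale (SE 0.165, 95% interval 0.18 to 1.05), which exceeded that of 95.1% of all genes tested. The limma adjusted p was 0.580, against 0.0142 under robust moderation, which made it the 1 member called under that setting. In Ppn, unlike in the collagen IV chains, bam replicate 2 rather than bam replicate 1 was the lowest library. The annotation lists 4 transcripts, with proteins of 2174 to 2898 amino acids, and no other gene overlaps its exons.

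**Figure D4:**
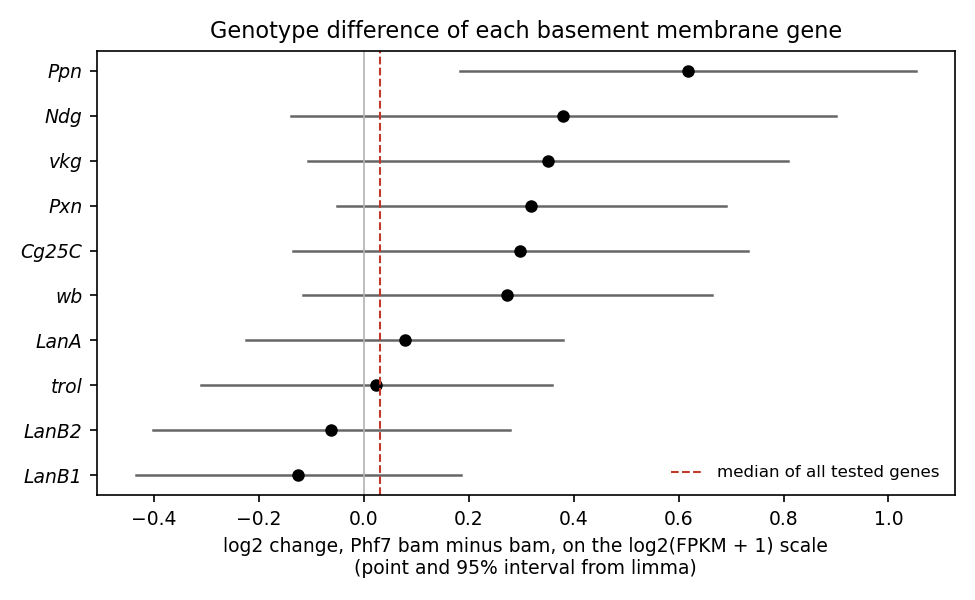
Log2 change of each basement membrane gene, Phf7 bam minus bam, with its 95% interval from limma; the grey line marks 0 and the dashed line the median of all tested genes. The interval of Ppn (0.18 to 1.05) lies above 0 and those of the other 9 genes include it; the intervals are not adjusted for the number of genes.

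Over the 10 members, the libraries did not contribute alike. Phf7 bam replicate 2 was the highest library for 6 of the 10 members, and bam replicate 1 the lowest for 7. The summed FPKM of the members was 238 and 274 in Phf7 bam testes, against 205 and 241 in bam testes, so that Phf7 bam replicate 1 lay slightly below bam replicate 2. Without bam replicate 1 the median change of the members was 0.16, and without bam replicate 2 it was 0.34. The same libraries also had the lowest and the highest relative depth, and the part of depth in the result was not tested.

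Markers of cells that can make basement membrane proteins did not all move alike. Haemocytes are blood cells that deposit collagen IV and peroxidasin. Of their 9 markers 7 passed the filter of a mean of 1 FPKM, and 6 of these had both Phf7 bam libraries above both bam libraries, beside 20.5% of all genes tested. He was listed at 0 in all 4 libraries. Their summed level was 62.4 and 75.6 FPKM in Phf7 bam testes, against 59.9 and 59.1 FPKM in bam testes, most of it from crq, a scavenger receptor. Hml, which encodes hemolectin, had 5.22 and 4.78 FPKM in Phf7 bam testes, against 3.14 and 1.89 FPKM in bam testes (limma adjusted p = 0.643, the lowest of the list). No haemocyte marker was called by limma, and robust moderation called 1, Hml, higher. Fat body, another source of collagen IV in the fly, had 4 of 8 tested markers with both Phf7 bam libraries above both bam libraries (20.5% of all genes tested) and 0 below (14.0%). The yolk genes Yp1 and Yp2 lay below in both Phf7 bam libraries but under 1 FPKM, and were not tested. All 11 fat body markers had a summed level of 68.2 and 91.9 FPKM in Phf7 bam testes, against 34.9 and 52.1 FPKM in bam testes. No fat body marker was called by limma, with a lowest adjusted p of 0.0852. Robust moderation called 2 higher, beside 2.42% of all genes tested. The 13 muscle sheath markers summed to 899 and 1022 FPKM in Phf7 bam testes, against 765 and 1018 FPKM in bam testes, with bam replicate 1 lowest as for the collagen IV chains. In 1 of these 13 both Phf7 bam libraries lay above both bam libraries, and in 0 below. The 8 markers listed for cyst cells, the somatic cells that enclose the germ cells, summed to 88.2 and 102 FPKM in Phf7 bam testes, against 99.0 and 98.5 FPKM in bam testes. The largest part of this sum was chinmo, at 32.0 and 38.6 FPKM in Phf7 bam testes, against 43.1 and 39.3 FPKM in bam testes. The genotypes overlapped for tj, zfh1 and eya. In 1 of these 8 both Phf7 bam libraries lay above both bam libraries, and in 3 both lay below. Of the 10 early germ cell markers 5 lay above and 0 below, beside 20.5% and 14.0% of all genes tested. Non-overlap was thus also seen outside the haemocyte and fat body lists, but the lists differed in the size of the change. The median log2 change of the tested markers was 0.41 for haemocytes, 0.51 for fat body and 0.14 for early germ cells. It was 0.12 for the muscle sheath and 0.04 for cyst cells. In whole testes a different number of cells of a type and a different amount of RNA per cell cannot be told apart, and the part of these cell types in the result was not tested.

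**Figure D5:**
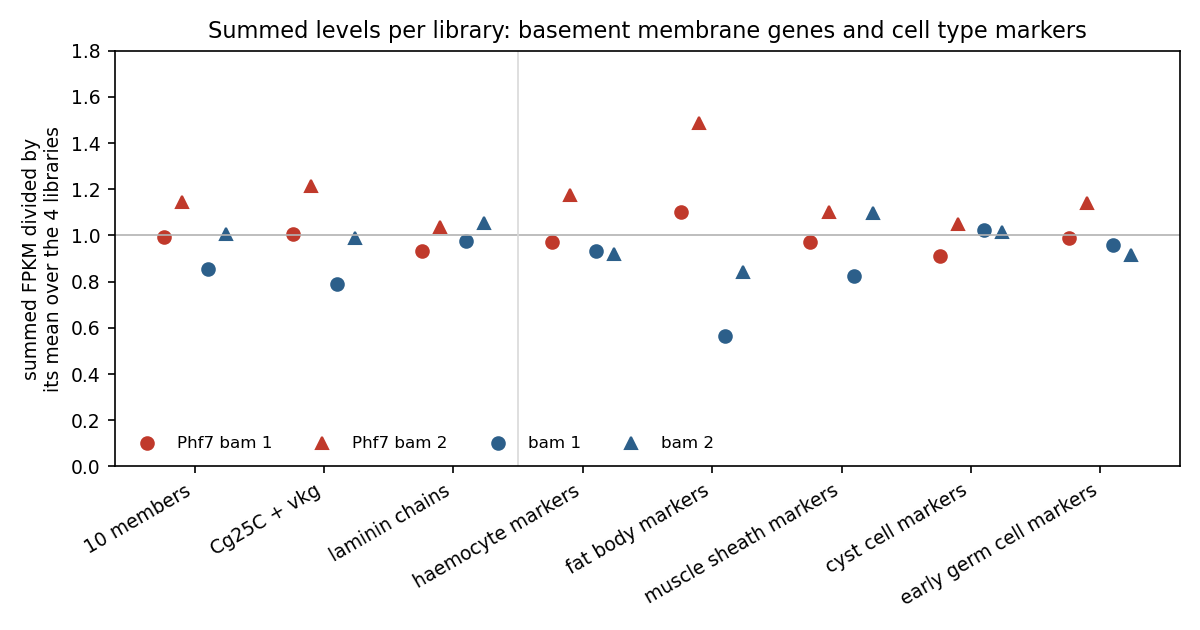
Summed FPKM of gene groups, divided by the mean of that sum over the 4 libraries, for Phf7 bam libraries (red) and bam libraries (blue), circles for replicate 1 and triangles for replicate 2; basement membrane groups stand left of the vertical line and marker lists right of it. The laminin chains stay near 1 in all libraries (62.9 and 69.8 FPKM in Phf7 bam testes, 65.5 and 70.7 FPKM in bam testes), and of the lists plotted, which leave out the accessory gland, the hub and the terminal epithelium, the fat body markers spread most (68.2 and 91.9 FPKM in Phf7 bam testes, 34.9 and 52.1 FPKM in bam testes).

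Other genes of basement membrane assembly were followed in 4 roles. Of 45 with values, 37 passed the filter of a mean of 1 FPKM, and limma called 0 of them in either direction, with 5 at an unadjusted p under 0.05. That unadjusted threshold was reached by 6.13% of all genes tested. Robust moderation called 3 higher and 0 lower, beside 2.42% higher and 3.42% in either direction over all genes tested. Their median change was 0.05, and 23 of 37 had a positive change, beside 57.4% of all genes tested. In 11 of the 37 both Phf7 bam libraries lay above both bam libraries, beside 20.5% of all genes tested. In 2 both lay below, beside 14.0%.

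In collagen IV processing and secretion, 0 of 9 tested genes were called and 4 had a positive change, beside 57.4% of all genes tested. Pdi, a protein disulphide isomerase that also serves as a subunit of prolyl hydroxylase, had 202 and 198 FPKM in Phf7 bam testes, against 194 and 239 FPKM in bam testes (change -0.11, limma adjusted p = 0.974). SPARC (BM-40-SPARC in the tables), a collagen IV binding glycoprotein needed for collagen IV deposition, had 68.2 and 77.4 FPKM in Phf7 bam testes, against 55.4 and 59.4 FPKM in bam testes. Its libraries did not overlap, with a change of 0.34 (95% interval 0.02 to 0.65, limma adjusted p = 0.785, against 0.423 under robust moderation). Rab8, a GTPase of polarised secretion, had 53.8 and 59.0 FPKM in Phf7 bam testes, against 54.1 and 53.7 FPKM in bam testes (limma adjusted p = 0.979). PH4alphaMP, PH4alphaSG1 and PH4alphaSG2, of the prolyl hydroxylase family, were below the filter.

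Among 8 tested genes of other matrix proteins and proteoglycans, 0 were called. Fas1, a fasciclin adhesion protein, had 139 and 153 FPKM in Phf7 bam testes, against 153 and 163 FPKM in bam testes (change -0.11, limma adjusted p = 0.944; -0.04 without Phf7 bam replicate 1, -0.19 without Phf7 bam replicate 2 and -0.07 without bam replicate 2). Sdc, the transmembrane proteoglycan syndecan, had 116 and 138 FPKM in Phf7 bam testes, against 110.2 and 114 FPKM in bam testes (change 0.17, limma adjusted p = 0.923). Its change was 0.30 without Phf7 bam replicate 1 and 0.05 without Phf7 bam replicate 2. The glypican gene dlp was nearly level, at 9.35 and 10.1 FPKM in Phf7 bam testes, against 9.44 and 9.997 FPKM in bam testes (limma adjusted p = 0.999). Glt and Mp were named after their values were seen, since robust moderation called them. Glt, which encodes the basement membrane glycoprotein glutactin, had 8.17 and 12.1 FPKM in Phf7 bam testes, against 5.62 and 6.05 FPKM in bam testes (change 0.68, and 0.42 without Phf7 bam replicate 2; limma adjusted p = 0.668, against 0.00314 under robust moderation). Mp, which encodes the collagen XV and XVIII homologue multiplexin, had 8.67 and 10.7 FPKM in Phf7 bam testes, against 6.17 and 6.45 FPKM in bam testes (change 0.54; limma adjusted p = 0.578, against 0.0443 under robust moderation). In both genes both Phf7 bam libraries lay above both bam libraries.

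Of 6 tested genes for crosslinking and proteolysis, 0 were called, and all 6 had a positive change, beside 57.4% of all genes tested. Timp, the inhibitor of matrix metalloproteinases, had 37.5 and 38.6 FPKM in Phf7 bam testes, against 30.9 and 36.9 FPKM in bam testes (change 0.16, limma adjusted p = 0.923), with a change of 0.04 without bam replicate 1 and 0.29 without bam replicate 2. Mmp1, a matrix metalloproteinase, had 31.5 and 32.8 FPKM in Phf7 bam testes, against 28.9 and 33.8 FPKM in bam testes (change 0.04, limma adjusted p = 0.988). The genotypes overlapped for Mmp1 and were separate for Timp. Loxl1 (lox in the tables), a lysyl oxidase that crosslinks matrix proteins, had 13.3 and 14.6 FPKM in Phf7 bam testes, against 10.5 and 11.6 FPKM in bam testes, a change of 0.32 (95% interval 0.01 to 0.62, limma adjusted p = 0.793, against 0.529 under robust moderation). The protease gene stl, of the ADAMTS family and likewise named with its values known, had 3.32 and 3.75 FPKM in Phf7 bam testes, against 1.63 and 2.01 FPKM in bam testes. Its change was 0.69 (limma adjusted p = 0.614, against 0.0461 under robust moderation).

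Of 14 tested receptor and adhesion genes, 0 were called and 0 had an unadjusted p under 0.05, with changes between -0.16 and 0.15. mys, the main beta integrin, had 49.5 and 56.0 FPKM in Phf7 bam testes, against 47.8 and 52.8 FPKM in bam testes (change 0.07, 95% interval -0.26 to 0.39, limma adjusted p = 0.981). rhea, the talin that ties integrins to actin, had 33.6 and 38.8 FPKM in Phf7 bam testes, against 34.7 and 36.3 FPKM in bam testes (change 0.02, limma adjusted p = 0.989). Both overlapped between the genotypes. The alpha integrin scb had 32.9 and 37.7 FPKM in Phf7 bam testes, against 30.7 and 32.4 FPKM in bam testes (change 0.15, 95% interval -0.16 to 0.46, limma adjusted p = 0.923), with a change of 0.25 without Phf7 bam replicate 1 and 0.06 without Phf7 bam replicate 2.

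The genes whose profile over the 4 libraries lay closest to the mean profile of the members, by Euclidean distance of centred log2 values, were Jheh1, ValRS-m (CG5660 in the tables), CG4991, tth and Pglym78, at distances of 0.027 to 0.033. These genes came from 3528 candidates, the tested non-members whose SD over the 4 libraries was at least the 0.152 of the mean profile. The members did not have to meet this limit. They had a median distance of 0.213 from their mean profile, and 603 of the 3528 candidates lay within it. Over 4 libraries many genes thus come as near to this profile.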

How the data were processed

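Reads were processed with TopHat2, Cufflinks, Cuffdiff and the build dm3, per the submitters' processing notes; not given in the sources used here are versions, annotation and use of strand. Each library has its own deposited table of FPKM values, 1 per gene, per the file headers. The deposited bounds excluded their own FPKM for 13.1% to 16.9% of genes and were not used as errors. Loci are those of the tables, counted from 1; strand, transcripts and exon overlaps come from Ensembl release 115, a later build (7 members matched by identifier, 3 by symbol). No member sequence is shown.

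Genes with a mean of at least 1 FPKM over the 4 libraries (8965 of 14664) entered a linear model in limma 3.58.1 (R 4.3.3). The model fitted log2(FPKM + 1) on genotype, with a trend, and this scale understates changes of low genes. The fit was checked on simulated data with independent noise, in which every changed gene moved more than any member here. That check says nothing about changes as small as those of the members. Residual degrees of freedom were 2, and moderation added 2.64 prior degrees of freedom from the trend over all genes. The p-values and intervals thus rest on a gene's own spread between these libraries and on that of other genes at its level. Under robust moderation the spread of other genes carries nearly all the weight for most genes. A count test was not run on FPKM, and precision from counting is unknown. Alternatives were pseudocounts of 0.5 and 0.1, no filter, a mean of 5 FPKM, equal medians, quantile normalization, no trend, robust moderation, a replicate block and each library left out. Tables were joined with pandas 2.3.3 and numpy 2.4.6 in Python 3.11.15 and drawn with matplotlib 3.10.9.

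The members and lists were chosen with earlier results of these data known. Of the pathway genes, called ones and the 3 with the highest mean in each role are named, besides Glt, Mp and stl; 1 listed gene, AdamTS-A, was not analysed here. Marker lists for the hub and for the terminal epithelium and seminal duct summed to 179 and 206 FPKM, and to 23.4 and 24.4 FPKM, in Phf7 bam testes, against 177 and 182 FPKM, and 16.1 and 19.9 FPKM, in bam testes. Most of the hub sum was arm, at 119 and 136 FPKM in Phf7 bam testes, against 113 and 114 FPKM in bam testes, while upd1 was below the filter. Of the 2 tested terminal epithelium markers, robust moderation called Nep5 higher (limma adjusted p = 0.0147, against 0.686 in the main fit).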

Additional observations from a re-analysis of the deposited data

How the results depend on the processing

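No tested member was called under any alternative except robust moderation, which called 1 member (Ppn) and 3 of the 37 other basement membrane genes (Glt, Mp and stl). All 10 members were tested in each, except that a mean of at least 5 FPKM left out wb and Ndg, so that 8 members and 31 other basement membrane genes were tested there. The number of genes called over all genes was 21, and 0 with no filter, 37 with a mean of at least 5 FPKM, 307 with robust moderation, 133 with a crossed pairing (bam replicate 1 with Phf7 bam replicate 2) and 0 to 101 with a library left out. With a library left out, the median change of the members lay between 0.16 and 0.34, and the number of members with a positive change between 6 and 9. The signs of trol (-0.0022 with equal medians, -0.0076 with quantile normalization) and rhea (-0.0036 and -0.011) turned in these settings. Leaving out libraries gave ranges that include both signs for LanA (-0.0043 to 0.16), LanB2 (-0.18 to 0.061), trol (-0.097 to 0.14), Pdi (-0.26 to 0.039), Rab8 (-0.0018 to 0.13), dlp (-0.051 to 0.048), Mmp1 (-0.072 to 0.15), mys (-0.022 to 0.15) and rhea (-0.079 to 0.12), and the cause was not tested. The median change of all genes was 0.0047 with equal medians and 0.031 as deposited. Same-numbered libraries deviated in opposite directions (correlation over genes -0.367). The labels say nothing of a pairing between genotypes. This correlation cannot decide whether there was one, since the uneven accessory gland transcripts also enter it. The replicate block called 18 genes and 0 members; the crossed pairing was chosen after seeing the data and called 0 members. With 2 libraries per genotype and unknown depth, the 95% intervals of the members span -0.43 to 1.05, and a p that misses the threshold does not show that levels are equal.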
